A study of Mus musculus with 18 samples.

Results

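Bone marrow of 1-week-old mice was measured 6 h after 2 Gy of gamma rays and compared with marrow of unirradiated mice of the same age. The arrays were chosen by their titles alone: 3 arrays of irradiated mice and 3 of unirradiated mice, 6 of the 18 arrays of the series. All mice were female and of the inbred strain C3H, with no altered allele and no agent other than radiation given in the labels. Each array carried Cy3-labelled copies of total RNA from bone marrow tissue, on a one-colour Agilent mouse array. The design text gives 3 mice per time point, matching the 3 arrays of each group, and does not say more on how animals and arrays correspond. Where the 6 h response was set against other groups, these were 1-week marrow 24 h after 2 Gy and 8-week marrow that was unirradiated or taken 6 h after 2 Gy, with 3 arrays each. The title of the series puts the question as one of age, progenitor survival and chemokine genes after irradiation.

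Gamma rays break DNA, and the kinases that sense breaks stabilise the transcription factor p53. p53 then switches on genes that halt the cell cycle, repair DNA or start apoptosis, along with genes such as Mdm2 that shut p53 down again. Bone marrow holds rapidly dividing precursors of all blood lineages beside mature neutrophils, resident macrophages and a supporting stroma, and immature lymphocytes are known to be among the most radiosensitive of these cells.

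A level is the log2 signal of a gene's brightest probe minus the 75th percentile of its array, so 0 is the level of the 75th percentile. Levels of different genes come from different probes and are not compared. A difference is the 6 h mean minus the control mean on that log2 scale, ± the standard error of the limma fit with 3 arrays per group. P-values are adjusted over the 11884 genes tested, and "rose" and "fell" are used for genes under 0.05. Of these genes 3031 rose (25.5%) and 3130 fell (26.3%), together 51.8%, and in 55.8% the 3 irradiated and 3 control arrays did not overlap. Against so wide a background, the count in a gene list is read beside 25.5% and 26.3%, and the median beside 0.0046 for all genes tested. At 8 weeks 23.9% of all genes rose and 22.1% fell at 6 h. The 8-week response was higher than that at 1 week in 10.5% and lower in 8.09%. From 6 h to 24 h at 1 week 18.6% went higher and 17.6% lower. Counts of these kinds are read beside those shares. Only 392 of the 6161 called genes moved at least 2-fold, 194 up and 198 down.

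Replicates correlated at r = 0.978 to 0.988 among controls and 0.979 to 0.986 at 6 h, and 53.7% to 62.1% of probes were well above background. Control replicate 2 stood apart. In that array 28 skeletal muscle genes averaged 3.75, against -1.42 and -0.76 in the other controls and -1.68 to -0.91 at 6 h. Its Acta1 probe, for skeletal actin, read 6.27 against -1.63 and -0.30 in the other controls, and its Col2a1 probe, for cartilage collagen, read 7.80 against 0.65 and 0.75. Results that rest on that array are given with and without it. Of the 6161 calls 5400 were made with the same sign without it, and the median of all genes was then -0.0038. Arrays lay on 5 slides, and only 1 slide held both groups (control replicate 1 and 6 h replicate 1). Defining markers of marrow cells (Mpo, Ltf, Alas2, Dntt, Pf4) were above background on all 6 arrays, while Cd4, Cd8a and the fat cell gene Plin1 were above it on none.

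Most of the p53 target genes measured rose. In the list of arrest and feedback targets 20 of 26 measured members rose and 1 fell (median 0.50), in that of death-side targets 16 of 20 measured members rose and 2 fell (median 0.78) and in that of repair, metabolic and other targets 21 of 30 measured members rose and 2 fell (median 0.46). The shares that rose were 76.9%, 80% and 70%, against 25.5% of all genes. These lists were drawn up from textbook p53 targets with earlier results of these data known. The 5 members that fell, named after their values were seen, were Sfn (-0.51), Trp53i11 (-0.62), Casp6 (-0.30), Rrm2b (-0.50) and Kitl (-0.44).

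Among arrest and feedback genes, Cdkn1a, the p21 inhibitor of cyclin-dependent kinases, read 0.32, 0.61 and 0.12 in the controls and 3.06, 2.68 and 2.31 at 6 h. The irradiated arrays lay far above the controls, a difference of 2.33 ± 0.16 or 5.03-fold (adjusted p = 1.84e-08). Mdm2, the ubiquitin ligase that degrades p53, read 1.27, 1.36 and 1.30 in the controls and 2.31, 2.36 and 2.14 at 6 h. It rose by 0.96 ± 0.09, less than Cdkn1a but with tightly spaced replicates. Ccng1, encoding cyclin G1, went from 0.56, 0.78 and 0.51 to 3.95, 3.90 and 3.80, a 9.63-fold rise. Phlda3, a p53-induced inhibitor of Akt, went from 2.25, 2.18 and 2.15 to 5.46, 5.47 and 5.43, and Zmat3, an RNA-binding zinc finger protein, from -1.49, -1.56 and -1.43 to 1.84, 1.96 and 1.96. No irradiated array overlapped a control in any of these genes. Sesn2, a stress-induced sestrin, rose by 1.47 ± 0.10 and the antiproliferative gene Btg2 by 0.56 ± 0.07. The transcript of p53 itself, Trp53, read 0.20, 0.16 and -0.31 in the controls and 0.29, 0.27 and 0.18 at 6 h, a difference of 0.23 ± 0.10 that did not pass (adjusted p = 0.0685).

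On the death side, Bbc3, the BH3-only protein Puma, read 2.98, 2.99 and 2.94 in the controls and 5.43, 5.26 and 5.16 at 6 h. The groups were far apart, and the difference was 2.31 ± 0.08 (adjusted p = 2.22e-12). Bax, which forms the mitochondrial pore, rose by 1.52 ± 0.09, from 2.23, 2.15 and 2.34 to 3.79, 3.69 and 3.81. Aen, an apoptosis-enhancing nuclease, rose by 1.99 ± 0.08, Ei24 by 1.65 ± 0.08 and Trp53inp1 by 1.66 ± 0.09. The death receptor Fas rose by 0.77 ± 0.07 and the apoptosome scaffold Apaf1 by 0.55 ± 0.09. In the wider BCL2 family 8 of 13 measured members rose and 2 fell (median 0.33), and members with opposite roles moved the same way. The pro-death gene Bcl2l11 (Bim) rose by 0.49 ± 0.07, and the survival genes Mcl1 and Bcl2a1b rose by 0.31 ± 0.05 and 0.83 ± 0.09. A dimmer Bcl2l11 probe, above background on all 6 arrays, differed by 0.14. Bmf, another BH3-only gene, fell by 0.65 at its brightest probe, while its 2 dimmer probes differed by 0.30 and 0.13. The other fall, Bak1 (-0.35), was named after its value was seen.

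Caspases and death adaptors had no common direction: 11 of 25 measured members rose and 8 fell (median 0.08). Without control replicate 2, 8 rose and 10 fell (median 0.03). The members that fell include 3 mitochondrial proteins released during apoptosis, Endog (-0.70 ± 0.07), Aifm1 (-0.56 ± 0.07) and cytochrome c, Cycs (-0.59 ± 0.07). Xiap, which blocks caspases, rose by 0.52 ± 0.08.

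Several of the remaining p53 targets rose strongly. Cpt1c, a brain-type carnitine palmitoyltransferase, went from -3.64, -3.96 and -4.0 to -0.14, -0.20 and -0.07, and Dglucy, D-glutamate cyclase, from 0.21, 0.07 and 0.18 to 3.17, 3.34 and 3.38. Inka2, an inhibitor of the kinase Pak4, went from -4.85, -3.81 and -4.24, with 2 of the 3 controls well above background, to -1.18, -0.95 and -0.98. Every irradiated array was far above every control in all 3 genes. Dcxr, a xylulose reductase, rose by 2.37 ± 0.08, Psrc1, a microtubule regulator, by 2.12 ± 0.08, the thiamine transporter Slc19a2 by 1.72 ± 0.08 and the epoxide hydrolase Ephx1 by 1.66 ± 0.09.

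Because these genes moved together, the 250 bases upstream of their starts were searched for the p53 consensus, a pair of decamers of 10 bases with no spacer. A window with at most 3 mismatches of 20 and the C at position 4 and G at position 7 of both decamers intact counted as a match, on either strand, a threshold set after the matches were seen. A match was found for 9 of 50 p53-list genes that rose (18%), for 2 of 15 that did not (13.3%), for 1.65% of 9558 tested genes with a promoter and for 1.36% of 27025 genes in all. A match is a description of the letters and not evidence of binding, and p53 sites known to lie in introns or farther upstream are outside this window. The sequences shown are those of the 3 genes with 1 mismatch and of Bbc3, the gene with the largest rise on the death side, each 60 bases from RefSeq on GRCm38.p6, written 5′ to 3′ along the gene with the match in capitals. They lie at chr17:29090908-29090967 on the plus strand, chr11:40755442-40755501 on the minus strand, chr9:66946276-66946335 on the plus strand and chr7:16309466-16309525 on the plus strand.
Cdkn1a: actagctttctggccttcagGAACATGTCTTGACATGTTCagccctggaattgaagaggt
Ccng1: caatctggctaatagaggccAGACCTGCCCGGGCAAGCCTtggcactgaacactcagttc
Rps27l: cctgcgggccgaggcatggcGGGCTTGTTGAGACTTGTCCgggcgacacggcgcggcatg
Bbc3: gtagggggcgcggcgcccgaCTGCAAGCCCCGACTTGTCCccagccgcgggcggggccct
The centre of the match lies 41 bases before a listed start in Cdkn1a, 185 in Ccng1, 107 in Rps27l and 87 in Bbc3, the last with 3 mismatches. RefSeq lists 2, 1, 2 and 3 starts for these genes, and the start with the best match was taken. It need not be the main start of the gene. Rps27l, a p53-induced ribosomal protein paralog named here for its promoter, read 5.43, 5.46 and 5.48 in the controls and 6.37, 6.10 and 6.33 at 6 h. It rose by 0.81 ± 0.08, much less than Ccng1 with as many mismatches.

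**Figure D1:**
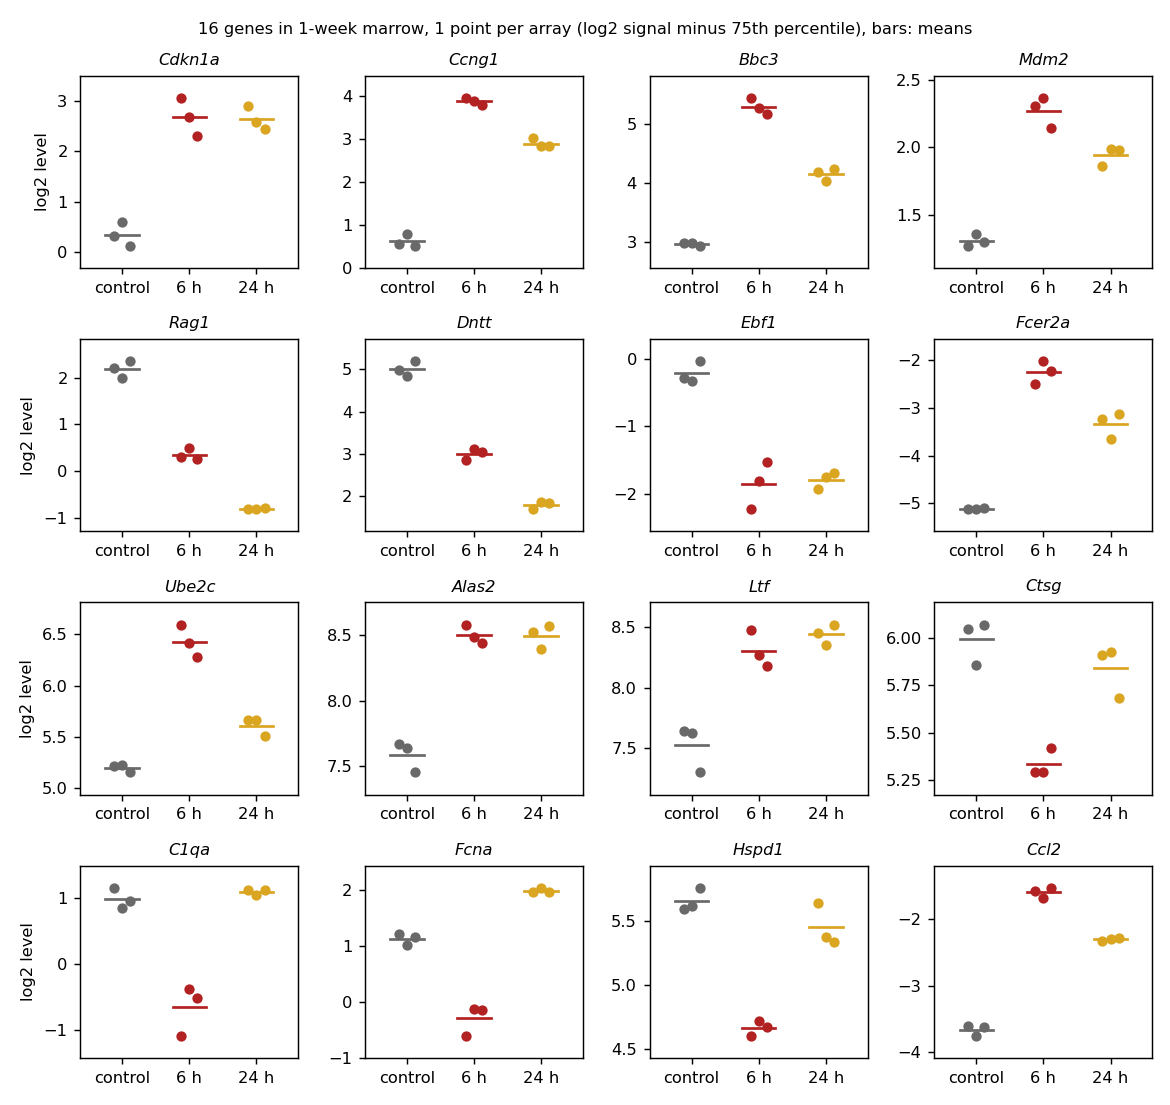
Level of 16 genes in 1-week marrow (log2 signal minus the 75th percentile of the array, each panel with its own axis), with 1 point per array for 3 controls, 3 arrays at 6 h and 3 at 24 h, and bars at group means. Cdkn1a, Ccng1, Bbc3 and Mdm2 lie higher at 6 h on every array, Rag1, Dntt and Ebf1 lower, and C1qa and Fcna are low at 6 h only.

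The plot of 16 genes shows that the p53 targets had parted by 24 h. Cdkn1a read 2.89, 2.58 and 2.44 at 24 h, a difference from 6 h of -0.04 ± 0.16 (adjusted p = 0.869), and Fas differed by -0.05 ± 0.07 (adjusted p = 0.625). Bbc3 fell from 6 h to 24 h by 1.14 ± 0.08 (adjusted p = 4.56e-08), to 4.18, 4.03 and 4.23, and Ccng1 by 0.99 ± 0.08. Of the arrest, death-side and other targets, 15, 11 and 15 were lower at 24 h than at 6 h, where 17.6% of all genes were. At 8 weeks the same lists rose in 17, 16 and 19 members, against 23.9% of all genes. The difference between ages passed in 6 of 26, 2 of 20 and 8 of 30 members, where it did in 18.6% of all genes. The response at 8 weeks was lower for Trp53inp1 (-0.74 ± 0.12), Dglucy (-0.72 ± 0.10), Btg2 (-0.40 ± 0.09) and, at the edge of the test, Bbc3 (-0.33 ± 0.11, adjusted p = 0.0439). It was higher for Inka2 (0.94 ± 0.28) and Phlda3 (0.64 ± 0.10).

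Genes of mitosis rose. In the list of mitosis genes 42 of 54 measured members rose and 1 fell (median 0.33), 77.8% against 25.5% of all genes. The list's mean level was 2.83, 2.78 and 2.96 in the controls and 3.25, 3.18 and 3.19 at 6 h, so the arrays of both groups were separate. Ube2c, which charges the anaphase-promoting complex with ubiquitin, read 5.22, 5.23 and 5.15 in the controls and 6.60, 6.42 and 6.28 at 6 h and rose by 1.23 ± 0.09. Ckap2, a spindle protein, rose by 0.66 ± 0.08, the cyclin Ccnb2 by 0.62 ± 0.08, the phosphatase Cdc25b by 0.78 ± 0.09, securin Pttg1 by 0.59 ± 0.08 and the helicase Pif1 by 0.67 ± 0.07. Cyclin B1 was at the edge of the test. Ccnb1 read 3.09, 3.12 and 3.19 in the controls and 3.36, 3.35 and 3.40 at 6 h, a difference of 0.24 ± 0.09 (adjusted p = 0.029) that became 0.23 (adjusted p = 0.0657) without control replicate 2. Without that array 34 members rose. The 1 member that fell, Pimreg (-0.46), was named after its value was seen.

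Of the DNA replication genes 1 of 51 measured members rose and 20 fell (median -0.17). The share that fell was 39.2%, against 26.3% of all genes. Without control replicate 3 or without 6 h replicate 1 only 12 fell. Those 2 fits also called fewer genes in all, 5579 and 5299 against 6161. Gins2, of the replicative helicase, read 2.25, 2.18 and 2.39 in the controls and 1.51, 1.60 and 1.89 at 6 h, a fall of 0.60 ± 0.09. Dut, which clears dUTP, fell by 0.54 ± 0.07, the histone chaperone Chaf1b by 0.51 ± 0.10 and Uhrf1, which copies DNA methylation, by 0.46 ± 0.08. E2f2, a transcription factor of the E2F family and the 1 member that rose, went from 7.56, 7.52 and 7.41 to 8.19, 8.07 and 7.99.

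G1 regulators were near the background, as 7 of 21 measured members rose (33.3%) and 6 fell (28.6%), with a median of -0.09. For all genes the shares were 25.5% and 26.3%. Beside Cdkn1a the rises included the inhibitors Cdkn1b (0.57 ± 0.07), Cdkn2c (0.58 ± 0.07) and Cdkn2d (0.65 ± 0.08) and the retinoblastoma relative Rbl2 (0.79 ± 0.07). The 6 members that fell included Cdk4, the kinase partner of D cyclins, which read 2.51, 2.41 and 2.54 in the controls and 1.48, 1.68 and 1.63 at 6 h and fell by 0.89 ± 0.07. Cdkn1c, which encodes a further inhibitor, differed by -1.20 ± 0.47, but by -0.29 (adjusted p = 0.089) without control replicate 2.

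Double-strand break repair genes were close to the background, as 10 of 42 measured members rose and 12 fell (median 0.02). Among those that fell were genes of end joining and break signalling: Xrcc6 (Ku70) fell by 0.77 ± 0.11, Xrcc5 (Ku80) by 0.60 ± 0.09, Lig4 by 0.91 ± 0.08 and Parp1 by 0.79 ± 0.10. Lig4 read 0.21, 0.13 and 0.29 in the controls and -0.68, -0.64 and -0.77 at 6 h, with no overlap. The checkpoint kinase Chek2 rose by 0.47 ± 0.08.

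The mitosis list was compared across time and age. By 24 h the mean level of the mitosis list was back at 2.79, 2.89 and 2.78, and 43 of 54 members were lower at 24 h than at 6 h. At 8 weeks 7 mitosis genes rose and 5 fell at 6 h, and the response was lower than at 1 week in 14 members and higher in 1, where 8.09% and 10.5% of all genes were. Without control replicate 2 these counts were 10 and 1. Replication genes fell in 45 of 51 members at 8 weeks, where 22.1% of all genes did. The difference between ages passed in 7 of them (3 without control replicate 2), with the lower response at 8 weeks.

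**Figure D2:**
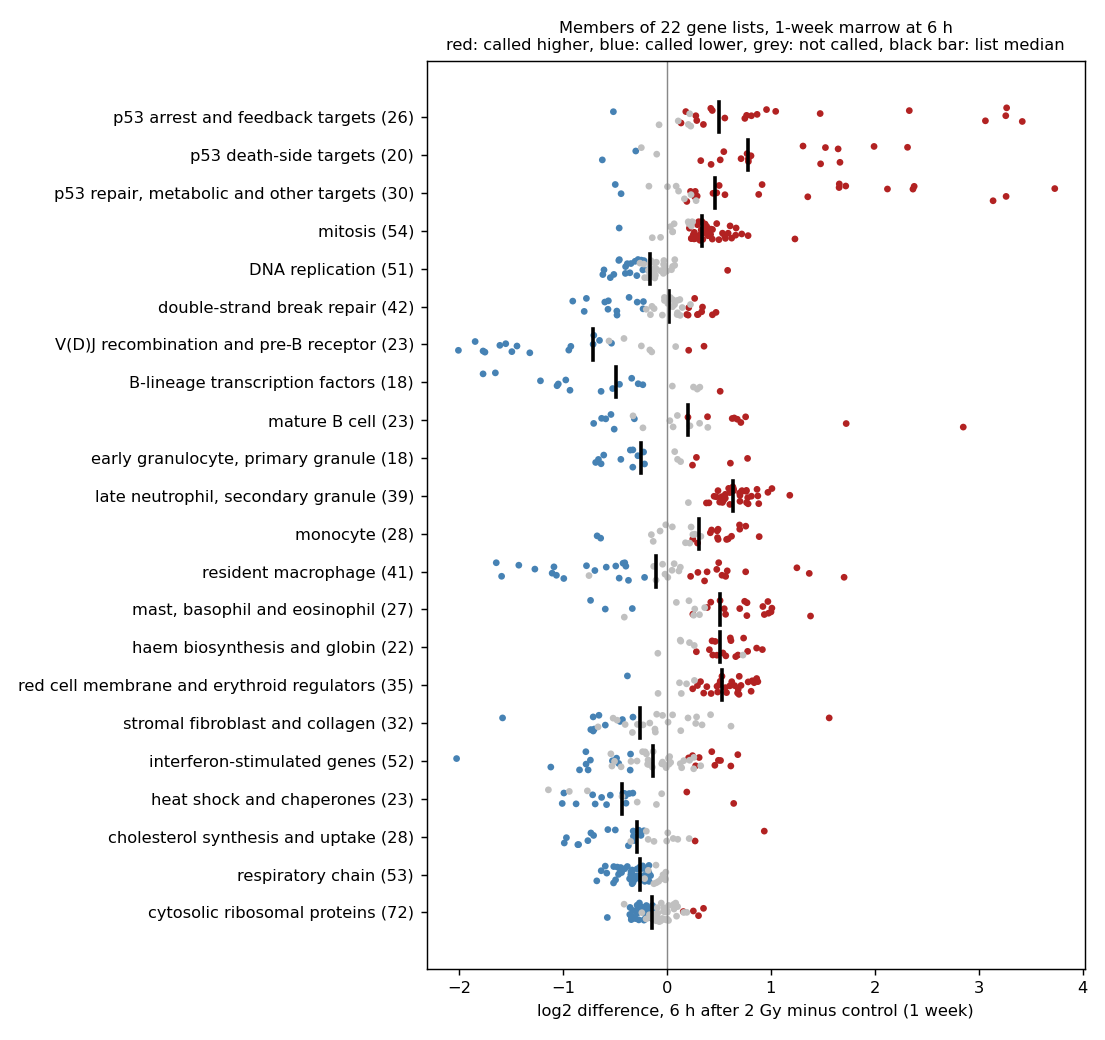
Log2 difference between 6 h and control in 1-week marrow for each measured member of 22 gene lists (number of members in brackets), with members that rose in red, members that fell in blue, the others in grey and the list median as a black bar. The p53, late neutrophil and red cell lists lie to the right of 0, and V(D)J recombination, B-lineage factors and the respiratory chain to the left.

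The plot of list members shows B-cell precursors at the low end. In marrow, precursors rearrange their immunoglobulin genes with the Rag recombinase and test the product in the pre-B receptor, under the control of Ebf1 and Pax5. Of the V(D)J recombination and pre-B receptor list 2 of 23 measured members rose and 15 fell (median -0.71), and of B-lineage transcription factors 1 of 18 measured members rose and 13 fell (median -0.49). The shares that fell were 65.2% and 72.2%, against 26.3% of all genes. In bulk RNA fewer cells of a type and less RNA per cell cannot be told apart, which holds for every cell type list described here.

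Dntt, terminal transferase, read 4.99, 4.85 and 5.19 in the controls and 2.85, 3.12 and 3.05 at 6 h, a fall of 2.0 ± 0.10 (adjusted p = 6.8e-10), and its other probes gave -1.89 and -2.05. Rag1, the recombinase, read 2.22, 1.99 and 2.35 in the controls and 0.29, 0.49 and 0.25 at 6 h, a fall of 1.84 ± 0.10. Neither gene's groups came near each other. The receptor for interleukin 7, Il7r, went from 1.34, 1.30 and 1.80 to -0.07, 0.11 and -0.06, and the signalling adaptor Blnk from 6.22, 6.14 and 6.28 to 4.81, 5.0 and 4.87. A dimmer Il7r probe, above background on all 6 arrays, differed by -0.41. Of the transcription factors, Ebf1 read -0.28, -0.32 and -0.03 in the controls and -2.23, -1.81 and -1.53 at 6 h and fell by 1.65 ± 0.14, and Lef1 fell by 1.77 ± 0.13. Pou2af1 fell by 1.22 ± 0.09, Sox4 by 1.06 ± 0.08, Irf4 by 0.97 ± 0.12 and Foxo1 by 0.93 ± 0.07. Cd79a, of the receptor complex that later stages keep, read -2.02, -2.08 and -2.21 in the controls and -3.14, -1.69 and -3.15 at 6 h, a difference of -0.56 ± 0.29 that did not pass (adjusted p = 0.122). Myb fell by 0.63 ± 0.06 at its brightest probe, and its other probe differed by 0.075. The members that rose, named after their values were seen, were Cd24a (0.36), Bst1 (0.21) and Bcl6 (0.51).

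Between 6 h and 24 h the low levels went lower. Rag1 read -0.82, -0.81 and -0.79 at 24 h, -1.15 from 6 h (adjusted p = 5.73e-07), and Dntt read 1.69, 1.87 and 1.84, -1.20 from 6 h. Ebf1 did not follow, at -1.93, -1.76 and -1.70 and a difference of 0.06 ± 0.14 (adjusted p = 0.747). Of the V(D)J list 13 of 23 members were lower at 24 h than at 6 h, where 17.6% of all genes were. At 8 weeks 17 members of it fell, where 22.1% of all genes did, and Rag1 fell more than at 1 week, by 1.16 ± 0.14 (adjusted p = 8.67e-05).

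Mature B-cell genes did not share a direction: 9 of 23 measured members rose and 6 fell (median 0.20). The largest rise was that of Fcer2a, the low-affinity IgE receptor CD23 of mature B cells. Its probe was not well above background in any control (-5.12, -5.12 and -5.09) and was on all 3 irradiated arrays (-2.50, -2.03 and -2.24), at least 4.37-fold higher. That bound sets the 6 h mean against the weakest signal well above background on each control array, or the gene's own where that is higher. Ms4a1, CD20, rose by 0.65 ± 0.11, Cd83 by 0.68 ± 0.10, Cd55, a complement inhibitor, by 0.76 ± 0.06 and Fcmr, the IgM receptor, by 0.63 ± 0.11. Ralgps2 fell by 0.70 ± 0.08.

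Plasma cell genes fell in 7 of 14 members (median -0.36), among them the secretory chaperones Sdf2l1 (by 0.79 ± 0.09) and Mzb1 (by 0.69 ± 0.07). The 1 that rose was Jchain, which joins secreted IgM and IgA, from -2.03, -2.0 and -2.10 to -1.11, -0.98 and -1.09. Fkbp11 fell by 0.83 ± 0.10 at its brightest probe and its other probe differed by 0.55. Of T-cell genes 4 of 19 rose and 3 fell, or 4 and 5 without control replicate 2. Of cytotoxic genes 7 of 24 rose and 4 fell, or 3 and 6 without 6 h replicate 2. Cd3e read -3.95, -3.59 and -4.01 in the controls and -4.37, -3.36 and -4.14 at 6 h, with 2 of the 3 irradiated arrays well above background, a difference of -0.11 ± 0.36 (adjusted p = 0.824), while Cd3d and Cd3g rose by 0.65 ± 0.13 and 0.32 ± 0.10. Thy1 fell by 0.73 ± 0.09, Cd27 by 0.57 ± 0.10 and Zap70 by 0.55 ± 0.13. Granzyme A, Gzma, fell by 0.55 ± 0.13, the granule protein Nkg7 by 0.33 ± 0.08, and the NK receptor gene Klra8 passed as higher, though its probe was well above background on no control and on 1 irradiated array. MHC class II genes had 1 member higher and 1 lower of 11, H2-Aa (0.45 ± 0.14) and H2-Ob (-0.82 ± 0.20, its probe well above background on 1 of the 3 irradiated arrays).

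The neutrophil lineage parted by stage. Genes of the primary granules of early granulocytes fell, and genes of the later granules and of mature neutrophils rose. In the early list 11 of 18 members fell and 4 rose (median -0.25), and in the late list 38 of 39 rose and 0 fell (median 0.63), limma's count of falls at an unadjusted p under 0.05 being 0 as well. The shares were 61.1% lower and 97.4% higher.

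Ctsg, cathepsin G of the primary granule, read 6.05, 5.86 and 6.07 in the controls and 5.29, 5.29 and 5.42 at 6 h and fell by 0.66 ± 0.09. Prtn3, proteinase 3, read 1.95, 1.75 and 1.84 in the controls and 1.14, 1.19 and 1.15 at 6 h and fell by 0.68 ± 0.10, and Mpo, myeloperoxidase, read 8.20, 8.03 and 8.08 in the controls and 7.70, 7.75 and 7.87 at 6 h and fell by 0.33 ± 0.07. All 3 enzymes were lower on each irradiated array than on any control. Of the early list's 4 rises, the hexokinase Hk3 rose by 0.78 ± 0.12 and the ficolin Fcnb by 0.61 ± 0.10, the others being Clec5a (0.25) and Serpinb1a (0.28), named after their values were seen. In the late list, Ltf, lactoferrin, read 7.64, 7.63 and 7.30 in the controls and 8.47, 8.27 and 8.18 at 6 h, a rise of 0.78 ± 0.09. Ngp, neutrophilic granule protein, read 6.36, 6.21 and 6.34 in the controls and 7.05, 7.01 and 6.95 at 6 h, and the chitinase-like Chil3 read 5.30, 5.32 and 5.14 in the controls and 6.61, 6.43 and 6.27 at 6 h. The integrins Itgam and Itgb2l rose by 0.78 ± 0.08 and 0.97 ± 0.10, and Cybb, of the oxidase, by 0.72 ± 0.07. The control range in Ltf was wider than in Ngp, and neither gene's groups overlapped.

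At 8 weeks the late list moved as at 1 week, with 37 rises, and its response differed between ages in 3 members each way. The early list did not: 5 members rose and 1 fell at 8 weeks, and the response was higher than at 1 week in 7 members and lower in 1. For Ctsg the difference between ages was 0.61 ± 0.12 (adjusted p = 0.00346) and for Mpo 0.30 ± 0.10 (adjusted p = 0.0466). At 24 h in 1-week marrow Ctsg read 5.91, 5.92 and 5.69, 0.51 above 6 h (adjusted p = 0.000264), and Mpo differed from 6 h by -0.03 ± 0.07 (adjusted p = 0.795).

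Of 28 monocyte genes 15 rose and 2 fell (median 0.31). Cd14, a receptor for bacterial lipopolysaccharide, read 0.74, 0.57 and 0.37 in the controls and 1.49, 1.46 and 1.39 at 6 h and rose by 0.89 ± 0.09. Lyz2, lysozyme, rose by 0.70 ± 0.12, and the chemokine receptors Cx3cr1 and Ccr2 by 0.70 ± 0.14 and 0.62 ± 0.13. The falls were Ifi204 (-0.67 ± 0.09) and Ms4a7 (-0.64), the latter named after its value was seen. Of mast cell, basophil and eosinophil genes 17 of 27 rose and 3 fell (median 0.51). The rises were led by eosinophil genes: Prg2, major basic protein, read 7.99, 8.17 and 7.83 in the controls and 8.81, 8.73 and 8.76 at 6 h, and Alox15, a lipoxygenase, read 0.21, 0.59 and 0.20 in the controls and 1.69, 1.81 and 1.64 at 6 h. Siglecf and the ribonuclease Ear1 rose by 0.94 ± 0.09 and 0.98 ± 0.08. The 3 falls, named after their values were seen, were the mast cell proteases Cma1 (-0.73), Mcpt4 (-0.59) and Cpa3 (-0.33).

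Resident macrophage genes divided within the list. Marrow macrophages engulf dying cells and nurse red cell precursors in erythroblastic islands. Of 41 measured members 18 fell (43.9%) and 13 rose (31.7%), with a median of -0.10, where 26.3% and 25.5% of all genes did. Without control replicate 2, 16 fell and 10 rose. The list's mean level was 0.59, 0.44 and 0.51 in the controls and 0.25, 0.46 and 0.34 at 6 h, so 6 h replicate 2 overlapped the control range.

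C1qa, C1qc and Fcna were among the members that fell. C1qa, of the first complement component, read 1.16, 0.85 and 0.95 in the controls and -1.08, -0.37 and -0.51 at 6 h, a fall of 1.64 ± 0.14 (adjusted p = 1.03e-07). C1qc read 2.71, 2.35 and 2.63 in the controls and 0.60, 1.23 and 1.09 at 6 h, and the plasma lectin gene Fcna read 1.22, 1.01 and 1.17 in the controls and -0.61, -0.12 and -0.15 at 6 h. The irradiated arrays lay well below the controls in all 3 genes, with replicate 1 the lowest. Timd4, a receptor for phosphatidylserine, fell by 0.99 ± 0.11, Axl, a receptor tyrosine kinase that binds dying cells through a bridging protein, by 1.06 ± 0.12, and the adhesion molecule Vcam1 by 0.58 ± 0.11. Most of the 13 rises are not named here, and those that are do not stand for the rest. The lectins Cd209a and Cd209b and the complement receptor Vsig4, named after their values were seen, passed as higher, but their probes were well above background on no control and on 1, 2 and 1 irradiated arrays. Adgre1, the F4/80 antigen that marks most mouse macrophages, differed by 0.23 ± 0.07 (adjusted p = 0.0143), and by 0.16 (adjusted p = 0.0829) without control replicate 2.

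C1qa and Fcna were higher again at 24 h. At 24 h C1qa read 1.12, 1.05 and 1.13 and Fcna 1.97, 2.04 and 1.97, differences from 6 h of 1.75 ± 0.14 and 2.28 ± 0.11 (adjusted p = 1.83e-07 and 1.82e-09). Of the list 25 members were higher at 24 h than at 6 h and 4 lower, where 18.6% and 17.6% of all genes were. At 8 weeks 31 of 41 members rose at 6 h and 3 fell. The 8-week response was the higher in 23 members and the lower in 1, and still the higher in 23 without control replicate 2. For C1qc the difference between ages was 2.10 ± 0.18 (adjusted p = 3.17e-06), for Fcna 1.95 ± 0.15 and for Timd4 1.63 ± 0.15.

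**Figure D3:**
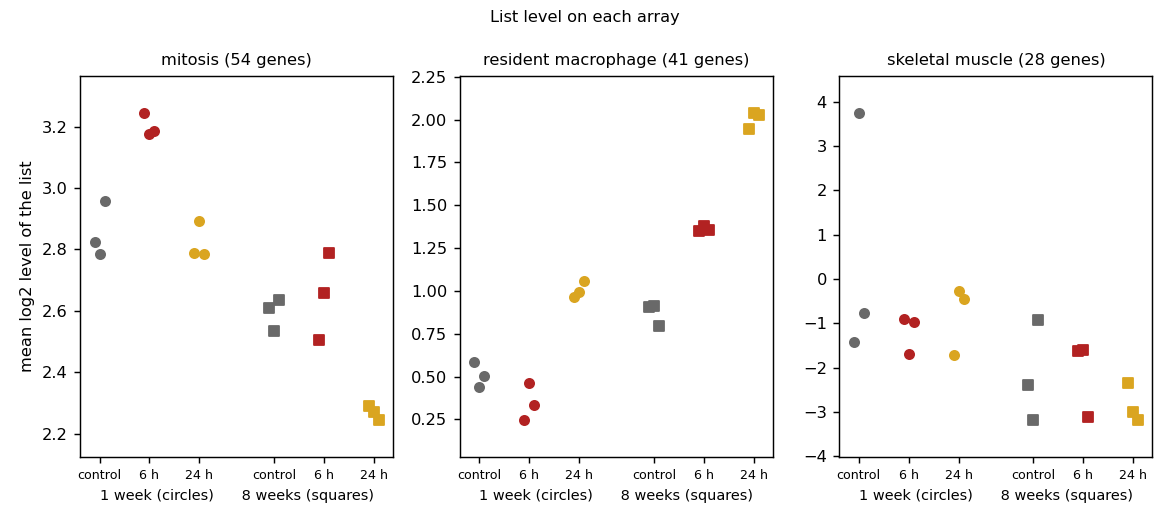
Mean log2 level over the tested members of 3 gene lists on each of the 18 arrays (circles for 1 week, squares for 8 weeks, grey for controls, red for 6 h, yellow for 24 h). The mitosis list is highest at 1 week and 6 h, the resident macrophage list is at its lowest there, and the skeletal muscle list is high in control replicate 2 at 1 week only.

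The plot of list levels sets these groups side by side. At 8 weeks the macrophage list read 0.91, 0.91 and 0.79 in controls and 1.35, 1.38 and 1.36 at 6 h, with all irradiated arrays above all controls. The mitosis list read 2.61, 2.54 and 2.64 in 8-week controls and 2.51, 2.66 and 2.79 at 6 h there, overlapping.

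Red cell genes rose. In the list of haem synthesis and globin 16 of 22 measured members rose and 0 fell (median 0.51), with 0 lower at an unadjusted p under 0.05 by limma, and in that of red cell membrane proteins and erythroid regulators 29 of 35 measured members rose and 1 fell (median 0.53). Alas2, which starts haem synthesis in red cells, read 7.67, 7.63 and 7.45 in the controls and 8.58, 8.48 and 8.44 at 6 h, a rise of 0.92 ± 0.08 (adjusted p = 2.05e-07). Trim10, of late erythroblasts, read 5.05, 5.02 and 5.03 in the controls and 5.96, 5.81 and 5.93 at 6 h. Each irradiated array exceeded each control in both genes. The 1 member that fell, the glucose transporter Slc2a1 (-0.38), was named after its value was seen. Fech, which inserts the iron, rose by 0.61 ± 0.10, Bpgm, which makes 2,3-bisphosphoglycerate, by 0.86 ± 0.10, and the membrane skeleton genes Dmtn and Tmod1 by 0.82 ± 0.11 and 0.69 ± 0.09. Sptb, erythroid spectrin, rose by 0.81 ± 0.09 at its brightest probe, with 0.80 and -0.02 at the others. By 24 h 19 of the 35 membrane and regulator genes were below their 6 h level, Trim10 by 0.69 ± 0.06, while Alas2 differed from 6 h by -0.0056 ± 0.08 (adjusted p = 0.967). At 8 weeks 20 of the 35 rose, and the response was lower than at 1 week in 9 and higher in 1, or 5 and 1 without control replicate 2.

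Megakaryocyte genes were below the background, with 4 of 26 higher and 1 lower. Thrombospondin, Thbs1, rose by 0.63 ± 0.17, the ATP receptor P2rx1 by 0.59 ± 0.15, pleckstrin Plek by 0.56 ± 0.10 and Serpine2 by 0.30 ± 0.12. Tgfb1 was the 1 that fell. Without control replicate 2, 3 members rose and 2 fell, and Serpine2 was no longer called (0.27, adjusted p = 0.0983 by limma). The Serpine2 call was also lost without control replicate 1 (0.0519), without control replicate 3 (0.0643) and under other alternatives. Stem and progenitor genes rose in 7 of 32 members and fell in 9. Lin28b, which with Hmga2 marks the fetal and neonatal stem cell program, read -2.07, -2.43 and -2.03 in the controls and -4.10, -3.79 and -3.86 at 6 h, with 2 of the 3 irradiated arrays well above background, a fall of 1.74 ± 0.25. Hmga2 read -0.87, -1.12 and -0.94 in the controls and -2.28, -2.02 and -1.80 at 6 h, a fall of 1.06 ± 0.16, and neither gene's groups overlapped. Cd34 fell by 0.40 ± 0.08 and Hlf by 0.56 ± 0.11. Ly6a, the Sca-1 antigen, rose by 0.96 ± 0.14, the endothelial and stem cell receptor Robo4 by 0.63 ± 0.14 and Lmo2 by 0.43 ± 0.07.

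Supporting tissue gave a mixed picture at 1 week. Of 32 stromal fibroblast and collagen genes 10 fell and 1 rose (median -0.26), and without control replicate 2 the counts were 6 and 4 (median -0.20). Without 6 h replicate 1 or without 6 h replicate 2 only 4 fell. Ccn1, a matrix protein of the immediate early response, read -2.60, -0.22 and -2.59 in the controls and -0.26, -0.62 and 0.16 at 6 h. The groups overlapped through control replicate 2 alone, and the rise of 1.56 ± 0.45 became 2.35 without it (adjusted p = 2.73e-06). Col14a1, a fibril-associated collagen, was not well above background on any irradiated array (-4.32, -4.41 and -4.64) and was on every control (-3.18, -1.96 and -3.49). With all controls it was at least 2.54-fold lower, a bound that rests in part on control replicate 2, the highest control. Its other probe, above background on 1 of the 6 arrays, differed by 1.09. The limma call was lost with the mean of its probes (-0.24, adjusted p = 0.427) and with normexp (adjusted p = 0.227). Fbn1, fibrillin, fell by 0.65 ± 0.18, and by 0.58 without control replicate 2 (adjusted p = 0.0291). Fstl1 read 2.78, 2.69 and 2.72 in the controls and 1.92, 2.03 and 2.12 at 6 h, a fall of 0.71 ± 0.11. Pdgfrb, a receptor of pericytes, fell by 0.43 ± 0.14. Its limma call was lost without control replicate 1 (adjusted p = 0.0945), without control replicate 3 (0.0595), without 6 h replicate 1 (0.0529) and without 6 h replicate 2 (0.0766). It was also lost with only the arrays compared (0.0576) and with normexp (0.146).

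Niche factors, which hold stem cells in the marrow, had 4 rises and 4 falls of 20. Bmp4 rose by 0.96 ± 0.13 and Thpo, thrombopoietin, by 0.71 ± 0.12. Csf1, the macrophage growth factor, rose by 0.49 ± 0.08, and Fst, named after its value was seen, by 1.41. Igf1 read 0.01, -0.06 and -0.13 in the controls and -1.07, -0.78 and -0.68 at 6 h, a fall of 0.79 ± 0.09 at its brightest probe. Its other probe, above background on all 6 arrays, differed by -0.12. Tgfb1 fell by 0.36 ± 0.07. The other falls were Vcam1 and Kitl. Cxcl12, the chemokine that retains stem cells, read 4.86, 4.48 and 4.86 in the controls and 4.34, 4.40 and 4.77 at 6 h, a difference of -0.23 ± 0.16 that did not pass (adjusted p = 0.227).

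At 8 weeks the same lists went up, with 26 of 32 stromal genes and 16 of 20 niche genes rising. The 8-week response was the higher in 21 stromal and 7 niche genes, and in 23 and 8 without control replicate 2. For Fstl1 the difference between ages was 1.79 ± 0.16 (adjusted p = 4.36e-06) and for Igf1 1.75 ± 0.13 (adjusted p = 1.37e-06).

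Osteoblast genes had 3 rises and 2 falls of 20. Bglap, osteocalcin, read 3.38, 2.59 and 3.01 in the controls and 4.57, 4.02 and 4.11 at 6 h and rose by 1.25 ± 0.31, as did its neighbour Bglap3 (1.22 ± 0.29), whose sequence is nearly the same, so that their probes may share signal. Runx2, the master factor of bone formation, rose by 0.85 ± 0.19, and Alpl, alkaline phosphatase, fell by 0.79 ± 0.18. The other fall, Col11a2 (-1.02 ± 0.41), became -0.26 (adjusted p = 0.252) without control replicate 2. Osteoclast genes had 4 rises and 1 fall of 14, the fall being Acp5 (-0.46 ± 0.11), tartrate-resistant acid phosphatase, and the rises Car2 (0.54 ± 0.09), Mmp9 (0.54 ± 0.10), Nfatc1 (0.40 ± 0.11) and Clcn7 (0.30 ± 0.09). Endothelial genes rose in 8 of 26 and fell in 2, and in 4 and 2 without control replicate 2. Mmrn2 rose by 1.0 ± 0.16 and Ptprb by 0.64 ± 0.18, and the falls were Cd34 and Egfl7 (-0.46 ± 0.11). Adipocyte and lipid uptake genes had 5 rises, such as Fabp4 (0.43 ± 0.12) and Cd36 (0.48 ± 0.15), and 2 falls of 18, Fasn (-0.85 ± 0.08) and Acly (-0.20), the latter named after its value was seen.

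Lists of muscle, cartilage and imprinted growth genes followed control replicate 2. Skeletal muscle genes had a median of -1.71 with that array and 0.03 without it, and 5 of 28 fell (Myom2, Apobec2, Mybpc2, Myl4 and Fbxo32). Without control replicate 2, 3 fell and 1 rose. The number that fell was 18 without control replicate 1, 10 without control replicate 3 and 3 without 6 h replicate 2. Cartilage genes had a median of -1.81 with it and 0.28 without it, and 7 of 11 fell without control replicate 1 where 1 did with all arrays. Imprinted genes had a median of -0.87, with 6 of 11 lower, and -0.31 with 3 lower without control replicate 2. Without 6 h replicate 1 or without 6 h replicate 2 also 3 fell, but the medians stayed at -0.86 and -0.90. Igf2, a fetal growth factor, read 2.88, 6.09 and 2.90 in the controls and 2.48, 2.40 and 2.38 at 6 h, so that 1 control array set the difference of -1.54 ± 0.60, which became -0.47 (adjusted p = 0.261) without it. Grb10 read 1.65, 2.37 and 1.69 in the controls and 0.78, 0.73 and 1.01 at 6 h, and its fall of 1.06 ± 0.14 became 0.83 (adjusted p = 3.31e-06). Its other probes, above background on 5 and 1 of the 6 arrays, differed by -0.56 and -0.16. With the mean of its probes the limma call was lost (-0.59, adjusted p = 0.183). Myom2 differed by -3.22 ± 0.98 and Apobec2 by -3.08 ± 1.03, and by -1.65 (adjusted p = 0.0562) and -1.25 (adjusted p = 0.0756) without the array. The part of muscle and cartilage transcript in other falls was not tested beyond leaving that array out.

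Chemokines draw blood cells into tissue. Among their ligands 10 of 22 measured members rose and 1 fell (median 0.22), and 14 further ligands were too dim to test. Ccl2, the main attractant of monocytes, read -3.61, -3.76 and -3.63 in the controls and -1.57, -1.69 and -1.53 at 6 h. The replicates were tightly spaced and the groups far apart, with a difference of 2.07 ± 0.11 (adjusted p = 6.6e-10). Its neighbours Ccl7 and Ccl12 passed as higher, but Ccl7 was well above background on no control and on 1 irradiated array, and Ccl12 on no control and on 2, so no size is given. Ccl4 rose by 0.69 ± 0.18, Ccl3 by 0.38 ± 0.14, Ccl5 by 0.31 ± 0.09 and Ccl6 by 0.69 ± 0.09. The limma call of Ccl3 was lost without control replicate 1 (adjusted p = 0.102) and without control replicate 3 (0.0722). It was also lost without 6 h replicate 1 (0.0847), without 6 h replicate 2 (0.128), with only the arrays compared (0.0910) and with normexp (0.305). That of Ccl5 was lost with slide as a block (0.0514) and with normexp (0.577). Cxcl10 rose by 0.74 ± 0.19 and the membrane-bound ligands Cxcl16 and Cx3cl1 by 0.77 ± 0.14 and 0.73 ± 0.16. Ccl25 fell by 0.26 ± 0.09 (adjusted p = 0.0224), and by 0.21 (adjusted p = 0.0887) without control replicate 2. Its other probe differed by 0.33.

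The ligand response was higher at 8 weeks in 5 of 22 members, where it was in 10.5% of all genes. Among them were Ccl2, by 0.93 ± 0.15 (adjusted p = 0.000729), Ccl3 by 0.65 ± 0.20 and Cx3cl1 by 0.73 ± 0.22. By 24 h at 1 week Ccl2 read -2.32, -2.30 and -2.28, lower than at 6 h by 0.71 ± 0.11, and Ccl4 was lower by 1.64 ± 0.18. Of the receptors 9 of 18 measured members rose and 2 fell (median 0.53). Ccr3, of eosinophils, rose by 1.0 ± 0.12, Ccrl2 by 0.97 ± 0.10, Ccr6 by 0.85 ± 0.15 and Cxcr2, of neutrophils, by 0.70 ± 0.13. The 2 falls, named after their values were seen, were Ccr7 (-0.51) and Cxcr3 (-0.22).

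Inflammatory and NF-kB genes rose in 14 of 25 members and fell in 3, and Toll-like receptor genes rose in 11 of 16 and fell in 0 (limma, 0 at an unadjusted p under 0.05). Without control replicate 2 the Toll-like receptor count was 8. Nfkb2 rose by 0.61 ± 0.08, Nfkbiz by 0.50 ± 0.10, Tnfaip2 by 0.55 ± 0.08, and Tlr2 and Tlr9 by 0.49 ± 0.08 and 0.53 ± 0.09. Il18 read -0.03, -0.14 and -0.10 in the controls and -0.92, -0.76 and -0.82 at 6 h, a fall of 0.74 ± 0.08, where the 8-week response was a rise of 0.85 ± 0.08. The other falls were Tgfb1 and Nfkbie (-0.30), the latter named after its value was seen. Immediate early genes rose in 14 of 25 members and fell in 3. Atf3, of the stress response, read -2.70, -2.36 and -2.61 in the controls and -1.43, -1.08 and -0.95 at 6 h and rose by 1.41 ± 0.13, and Maff and Nr4a1 rose by 1.28 ± 0.13 and 0.76 ± 0.07. The falls were Csrnp1 (-0.83 ± 0.08), Dusp2 (-0.97 ± 0.09) and Myc (-1.09), the last named after its value was seen. Of glucocorticoid-induced genes 8 of 18 rose and 2 fell, with Ddit4, an inhibitor of mTOR, at 1.39 ± 0.08, Errfi1 at 0.92 ± 0.17 and the clock gene Per1 at 0.90 ± 0.18. The falls were Cdkn1c and the metallothionein Mt1 (-0.32), the latter named after its value was seen. Clock genes had 3 rises and 3 falls of 14, the rises being Per1, Nfil3 (0.58 ± 0.10) and Bhlhe40 (0.49 ± 0.08) and the falls Hlf, Dbp (-0.50 ± 0.06) and Arntl (-0.28 ± 0.10). Without control replicate 2 the counts were 4 and 2, and Arntl was no longer called (-0.25, adjusted p = 0.0779 by limma). The Arntl call was also lost without control replicate 1 (0.0523), without 6 h replicate 1 (0.117) and with normexp (0.920).

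Of 52 interferon-stimulated genes 12 fell and 10 rose (median -0.14), shares of 23.1% and 19.2% that are below the background. Without control replicate 2 the counts were 18 and 5, and without 6 h replicate 1 they were 12 and 5. Gbp8, a guanylate-binding protein, read -1.31, -1.29 and -1.13 in the controls and -3.51, -2.85 and -3.44 at 6 h and fell by 2.02 ± 0.12, though a dim second probe, above background on 3 of 6 arrays, differed by -0.13. Ifit3 read -1.03, -1.85 and -1.22 in the controls and -2.38, -2.43 and -2.63 at 6 h, a fall of 1.12 ± 0.19, and the immunoproteasome subunits Psmb8 and Psmb10 fell by 0.84 ± 0.09 and 0.76 ± 0.07. Rsad2 rose by 0.61 ± 0.10 and the nuclease Isg20 by 0.68 ± 0.06. At 8 weeks 29 members rose and 3 fell. The 8-week response was the higher in 17 members, with 2.12 ± 0.17 for Gbp8 and 1.60 ± 0.26 for Ifit3 (adjusted p = 1.96e-06 and 0.000848). By 24 h at 1 week Gbp8 read -0.67, -0.64 and -0.72, higher on each array than on any control.

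Chaperones and mitochondrial genes were low at 6 h. Of 23 heat shock and chaperone genes 14 fell and 2 rose (median -0.43), 60.9% against 26.3% of all genes. Hspd1, the mitochondrial chaperonin, read 5.59, 5.61 and 5.76 in the controls and 4.60, 4.72 and 4.67 at 6 h and fell by 0.99 ± 0.07. Its partner Hspe1 fell by 0.63 ± 0.07, mitochondrial Hspa9 by 0.71 ± 0.05, the co-chaperones Fkbp4 and Stip1 by 1.01 ± 0.07 and 0.69 ± 0.07, and Hspa4 by 0.58 ± 0.07. The 2 rises, named after their values were seen, were Dnajb4 (0.64) and Dnajb1 (0.19). At 24 h 13 of the 23 were above their 6 h level, where 18.6% of all genes were, with Hspd1 at 5.64, 5.38 and 5.33. At 8 weeks 7 rose and 5 fell, where 23.9% and 22.1% of all genes did. The 8-week response was the higher in 14, where it was in 10.5% of all genes.

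Of 53 respiratory chain genes 42 fell and 0 rose (limma, 0 at an unadjusted p under 0.05; median -0.26), 79.2% of the list, and 31 fell without control replicate 2. The shifts were small. Ndufs8, of complex I, fell by 0.67 ± 0.08, Ndufc1 by 0.58 ± 0.07, Cox5a, of complex IV, by 0.51 ± 0.06 and Sdhd, of complex II, by 0.40 ± 0.06. Ndufs8 read 1.74, 1.82 and 1.86 in the controls and 1.17, 0.96 and 1.27 at 6 h, without overlap. Of 72 cytosolic ribosomal protein genes 33 fell and 4 rose (median -0.14), Rpl14 by 0.57 ± 0.08 and Rpl37 by 0.34 ± 0.06. The 4 rises, named after their values were seen, were Rplp0 (0.35), Rplp1 (0.25), Rplp2 (0.16) and Rps27a (0.30). Over the processing alternatives from 31 to 46 respiratory genes and from 20 (without 6 h replicate 2) to 50 ribosomal genes fell. At 24 h 23 respiratory and 22 ribosomal genes were above their 6 h level, where 18.6% of all genes were.

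Cholesterol synthesis and uptake genes fell in 17 of 28 members and rose in 2 (median -0.29). Cyp51, the sterol demethylase, read -2.14, -1.92 and -2.05 in the controls and -3.37, -2.85 and -2.85 at 6 h and fell by 0.99 ± 0.15, Fdps fell by 0.85 ± 0.08, Dhcr7 by 0.76 ± 0.07 and Hmgcs1 by 0.73 ± 0.09. Against the list, squalene synthase Fdft1 read 1.02, 1.05 and 1.1 in the controls and 2.03, 1.94 and 2.01 at 6 h and rose by 0.94 ± 0.06. The other rise, the sterol exporter Abcg1 (0.27), was named after its value was seen. The 8-week response was the higher in 10 members and the lower in 1, where 10.5% and 8.09% of all genes were. Nrf2-controlled antioxidant genes rose in 13 of 29 members and fell in 6. Gclm, which limits glutathione synthesis, and the adaptor Sqstm1 rose by 0.63 ± 0.08 and 0.68 ± 0.07, and Gstp1 and Prdx1 fell by 0.56 ± 0.06 and 0.55 ± 0.06.

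**Figure D4:**
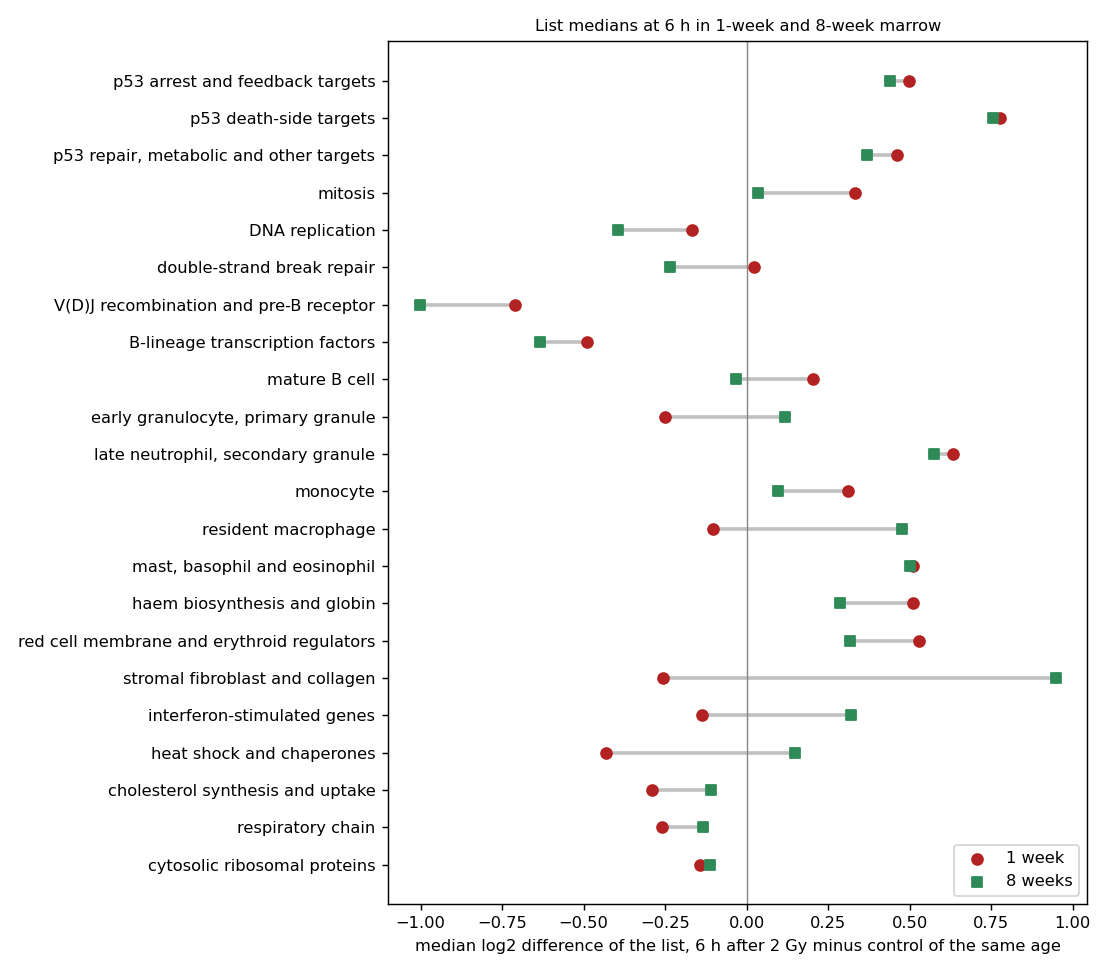
Median log2 difference between 6 h and control for 22 gene lists, with red circles for 1-week marrow and green squares for 8-week marrow, each against controls of its own age, and grey bars joining the pair. The p53 lists nearly coincide, while stromal, resident macrophage, interferon, heat shock and early granulocyte lists lie on opposite sides of 0.

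Across all genes the 6 h response differed between ages in 2210 of 11884 genes (18.6%), higher at 8 weeks in 10.5% and lower in 8.09%. The 8-week response itself took in 46.0% of genes, with 23.9% higher and 22.1% lower. Called changes had the same sign at both ages in 3436 genes and opposite signs in 225, and all 225 also passed the test of the difference. The plot of list medians at both ages shows where such genes lie, with the stromal list at -0.26 and 0.95 at 1 and 8 weeks and the death-side p53 list at 0.78 and 0.75. Between 6 h and 24 h at 1 week 36.2% of genes differed, 18.6% higher and 17.6% lower at 24 h.

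Several of the largest rises belong to none of these lists. Tgm5, a transglutaminase of skin, read -2.82, -2.53 and -3.66 in the controls and 1.40, 0.96 and 0.66 at 6 h, a rise of 4.01 ± 0.43. Pdpk1, the kinase that activates Akt, read 2.98, 2.51 and 1.88 in the controls and 6.74, 6.56 and 5.99 at 6 h, Ddx25, a testis helicase, 3.19, 3.20 and 1.93 in the controls and 7.34, 6.56 and 6.32 at 6 h, and Trim55, a muscle ubiquitin ligase, 2.04, 2.0 and 1.18 in the controls and 6.23, 5.59 and 4.90 at 6 h. Replicate 1 was the highest irradiated array for these 4 genes and control replicate 3 the lowest control. Lifr, Itga1, Myo1e and Plcd3 rose by 3.51 ± 0.39, 3.40 ± 0.49, 3.58 ± 0.49 and 3.45 ± 0.33. Control replicate 3 was again the lowest control, and replicate 1 the highest irradiated array for Lifr and Itga1. The deviations of each array from its group mean followed those of Pdpk1 over the 18 arrays, with r = 0.96 for Ddx25, 0.95 for Trim55, 0.93 for Itga1, 0.91 for Lifr, 0.87 for Tgm5, 0.86 for Myo1e and 0.84 for Plcd3. These arrays share their hybridisation and scaling, and the correlations are a description of genes picked for their rise.

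Tgm5, Trim55 and Plcd3 have 1 probe each. Of Pdpk1 2 further probes differed by 0.27 and 0.16, both on all 6 arrays above background. Of Itga1 a second probe above background differed by 0.29, and of Lifr by -0.11. Of Myo1e a probe above background on all 6 arrays differed by 0.17, and one above it on 2 arrays by 1.28. The other Ddx25 probe, above background on 1 array, differed by -0.40. By 24 h the group means of the 8 probes differed from control by -0.19 to 0.075. Aqp5, a water channel of glands, was not well above background in any control (-4.06, -4.85 and -5.0) and was at 6 h (-1.01, -0.68 and -0.23), at least 12.7-fold higher, and its deviations followed those of Pdpk1 at r = 0.56. On the log2 values of the authors' deposited table the difference in Aqp5 was 3.9968, against 3.9979 in the main limma fit. There it did not pass (adjusted p = 0.602), while it passed under the other alternatives (adjusted p of at most 0.0046). Why the p-value moved while the difference did not was not tested.

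**Figure D5:**
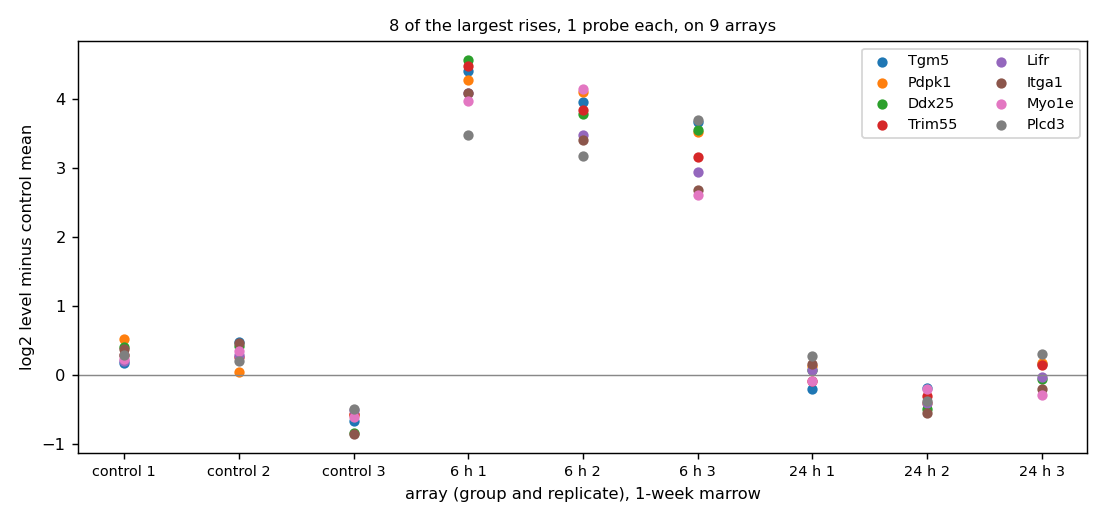
Log2 level minus the control mean for 8 of the largest rises, 1 probe each, on the 9 arrays of 1-week marrow (control, 6 h and 24 h, 3 replicates each). All 8 probes are near 0 in controls, far above it at 6 h with the first array highest for 6 of the 8, and near 0 again at 24 h.

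The plot of 8 rises shows how near each probe was to its control level at 24 h.

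The largest falls outside the lists did not share one course. Thrb, a thyroid hormone receptor, read -0.99, -1.09 and -0.82 in the controls and -3.40, -3.23 and -3.41 at 6 h, a fall of 2.38 ± 0.16, and read -3.68, -3.57 and -3.65 at 24 h, a difference from 6 h that did not pass (adjusted p = 0.182). Smtnl2 read 0.59, 1.22 and 0.47 in the controls and -1.36, -1.43 and -1.36 at 6 h and fell by 2.14 ± 0.22, and was lower still at 24 h (-2.73, -2.16 and -2.41, adjusted p = 0.00154). Grb7, an adaptor of receptor kinases, read 0.02, -0.23 and -0.43 in the controls and -2.52, -2.45 and -2.73 at 6 h, and Bcat1, which breaks down branched-chain amino acids, read 0.02, 0.17 and -0.19 in the controls and -2.18, -1.87 and -1.98 at 6 h. No irradiated array of these 4 genes reached a control. Bcat1 had risen again by 24 h, by 1.05 ± 0.13. At 8 weeks Smtnl2, Grb7, Bcat1 and Thrb fell too, by 2.91 ± 0.22, 3.43 ± 0.59, 1.91 ± 0.13 and 1.37 ± 0.16, Thrb less than at 1 week by 1.02 ± 0.23 (adjusted p = 0.0063).

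Sertad4 fell by 1.94 ± 0.36, and by 1.58 without control replicate 2. The probes of Speer3, Olfr138, Fgf13 and Nt5el were well above background on every control and on no irradiated array, at least 5.59-, 2.23-, 3.03- and 1.68-fold lower. Their limma calls were lost with normexp (adjusted p = 0.205, 0.467, 0.345 and 0.843). That of Nt5el was also lost with slide as a block (0.0505), without control replicate 1 (0.0519) and without 6 h replicate 3 (0.0638). The other Fgf13 probes, above background on 2 and 0 of the 6 arrays, differed by 0.31 and -0.74. Rgma (well above background on 2 of the 3 irradiated arrays), Srl and Mybpc2 passed the rule for the largest falls but were much lower with control replicate 2 than without it, with differences of -2.12, -1.94 and -1.80 that became -0.87, -0.82 and -0.79 once it was left out. Of the 198 genes that fell at least 2-fold 142 did so without that array.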

How the data were processed

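Total RNA of mouse bone marrow tissue was measured on 18 one-colour Agilent arrays, 3 in each of 6 groups. The deposited values are gProcessedSignal intensities, background-corrected per the file headers by Agilent Feature Extraction (version 9.5.1.1 there, 11.5.1 in the submitters' processing notes). Here control spots were left out, spots of a probe were averaged, log2 was taken and the 75th percentile of each array was subtracted. Probes were named by matching their RefSeq accessions, without versions, to RefSeq symbols (24844 of 41174 probes matched). The brightest probe stood for a gene (5955 genes had more than 1), and 5284 dim genes and 10 with outlier spots were left out, leaving 11884. A gene counted as dim unless its probe was well above background on every array of at least 1 group. The authors' deposited table of log2 values, found to be shifted to the 75th percentile and centred on each probe's median, served as an alternative (41174 of its 41252 probes matched).

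Tests used limma 3.58.1 in R 4.3.3 on all 18 arrays (lmFit, eBayes with intensity trend), with Benjamini-Hochberg adjustment, and were checked on simulated data. The difference between ages is the interaction, the 8-week response minus the 1-week response. The comparisons of 6 h and 24 h with control share their controls, so 24 h was tested against 6 h directly. Nothing in the labels says outright that each array is a separate mouse, and p-values measure the spread between arrays, whose small number limits the precision. Genes were named by a rule: the 15 largest rises and the 15 largest falls called with and without control replicate 2, without overlap between groups and well above background in the higher group; up to 6 called members of each list by smallest adjusted p; every called chemokine ligand; 10 genes with opposite responses at both ages; and Cdkn1a, Mdm2, Trp53, Ccnb1, Mpo, Cd79a, Cd3e, Ccl2 and Cxcl12. Clone and locus names and receptor gene segments were left out. Members and lists were chosen with earlier results of these data known. The 47 lists hold 1340 genes, of which 1164 were tested, and some genes are in more than 1 list. Alternatives varied the background correction, scaling, filter, probe rule, variance model, arrays, slide and replicate block. The normexp alternative used the median signal column, as these files hold no mean signal column.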

Additional observations from a re-analysis of the deposited data

Results flagged for a closer look

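In 10 genes the 6 h response ran in opposite directions at the 2 ages, with both responses and the difference between them called by limma. They were the 10 such genes with the smallest adjusted p for the difference, so their order and size are a description.

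For C1qc the 8-week response exceeded the 1-week response by 2.10 ± 0.18, with -1.59 at 1 week and 0.51 at 8 weeks, where the arrays read 3.20, 3.12 and 2.86 in controls and 3.53, 3.51 and 3.67 at 6 h. The phosphatidylserine receptor Timd4 (1.63 ± 0.15; -0.99 and 0.64) and the lectin Fcna (1.95 ± 0.15; -1.42 and 0.52) are in the same list of resident macrophage genes, as is Spic, a transcription factor of red pulp and marrow macrophages (1.38 ± 0.11; -0.21 and 1.16). Fcna read 2.69, 2.68 and 2.41 in 8-week controls and 3.16, 3.10 and 3.09 at 6 h there, so the rise at 8 weeks was small beside the fall at 1 week. Spic read 1.81, 1.92 and 1.74 and 2.82, 3.11 and 3.02, and its rise at 8 weeks was the larger of both responses. The 1-week call of Spic was lost when only the arrays compared were fitted (adjusted p = 0.0747), without control replicate 1 (0.0901), without control replicate 3 (0.0969), without 6 h replicate 1 (0.154) and with normexp (0.700).

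The other 6 genes were Kcnj10, a potassium channel (2.06 ± 0.18; -1.35 and 0.71), Fstl1, a secreted glycoprotein of fibroblasts (1.79 ± 0.16; -0.71 and 1.09), Igf1 (1.75 ± 0.13; -0.79 and 0.96), Il18 (1.60 ± 0.11; -0.74 and 0.85), the small GTPase Rhoc (1.48 ± 0.12; -0.30 and 1.18) and Ada, adenosine deaminase (1.11 ± 0.09; -0.94 and 0.16). The 1-week call of Rhoc was lost without control replicate 2 (adjusted p = 0.0522) and with normexp (0.354), and that of Timd4 with normexp (0.368). Igf1 read 0.35, 0.37 and 0.06 in 8-week controls and 1.18, 1.23 and 1.24 at 6 h there, and Il18 read 0.04, 0.12 and -0.14 and 0.89, 0.94 and 0.75, without overlap. These Igf1 values are of its brightest probe. At 1 week its other probe, above background on all 6 arrays, differed by -0.12.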

How the results depend on the processing

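Under other scalings, filters, probe and variance rules and the authors' own values, between 5762 (slide as a block) and 6372 (quantile scaling) genes were called at 6 h, apart from fits on fewer arrays and normexp. Fitting only the arrays compared, with fewer degrees of freedom, gave 5048 calls at 6 h, 1549 between ages and 4026 between 24 h and 6 h. With normexp background correction the counts dropped to 1286, 134 and 419, against 6161, 2210 and 4299. On 1 array, the third replicate of 8-week marrow at 24 h, normexp values correlated with the main ones at r = 0.786, against 0.964 to 0.974 on the other 17. Normexp without that array, an alternative chosen after seeing the data, gave 6001, 1832 and 3391. Of the genes that differed between ages 82.8% were higher at 8 weeks under normexp, 57.3% without that array and 56.5% in the main analysis. With slide as a block 1370 genes differed between ages, and 5762 at 6 h. Without a filter on dim genes the median of all genes at 6 h was 0.14.

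Leaving out 1 array at a time gave 5299 to 6108 calls at 6 h, 1577 to 2106 between ages and 3380 to 3953 between 24 h and 6 h. The replicate block gave 6122, 2097 and 4218 calls. Deviations of same-numbered arrays correlated at r = -0.043, -0.064 and 0.10, so the numbers were not taken as pairs. Of 286 named genes 282 were called, and 130 of them under every alternative. Only Ccl25 changed direction, to 0.036 (adjusted p = 0.796) with the mean of its probes. Signal over background limits the dim genes, for which a bound is given only where every array of the higher group measured them, and small shifts such as those of ribosomal genes depend on the scaling.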
